A study of Solanum lycopersicum with 12 samples.

Results

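Tomato callus after 14 days on SIM medium was compared with the cotyledon, the seed leaf from which it was grown, for the small RNA reads that lay on gene loci. The comparison used 6 of the 12 libraries of the study, 3 of cotyledons sampled at day 0, when they were cut from seedlings 6 days after sowing, and 3 of callus at day 14. The labels give the species, Solanum lycopersicum, but neither cultivar nor genotype, and they do not spell out SIM. They do not say whether the 3 replicates of a group came from separate cultures, so each p-value below rests on a spread that may be technical. The remaining 6 libraries, of callus at days 12 and 16, entered only the estimate of the spread and some values set side by side. All samples were total RNA, and callus and cotyledon are mixed tissues, so fewer cells of a type and less small RNA per cell cannot be told apart.

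Plants make small RNAs with Dicer-like enzymes, which leave products of characteristic lengths. Reads of 21 nt are typical of microRNAs and of secondary small interfering RNAs, reads of 22 nt can start the production of such secondary RNAs, and reads of 24 nt are typical of the small interfering RNAs that guide DNA methylation at repeats. Fragments of broken transcripts have no fixed length. Counts here are of small RNA reads that lie on a locus, and do not give the level of its mRNA.

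Of 34688 loci in the deposited count table, 30020 had a read of 18 to 26 nt in at least 1 of the 6 libraries, and 6729 had enough reads to be tested. Gene loci held 456744 to 698312 reads per library. The library totals, recovered from the deposited TPM table, were 2769024 to 4799134 reads. Which reads these totals include is not stated by the labels, and each level relative to them depends on it. A level below is given in RPM, the reads of a locus divided by that library total and scaled to 1000000 reads. The files pair no locus with a name or description and 0 identifiers matched the reference gene table, so loci are given by identifier, no function is assigned to any of them, and the labelled tissues were not checked against marker genes. On the first principal component, with 61.0% of the variance, the 3 callus libraries lay apart from the 3 cotyledon libraries, and on the second, with 13.6%, replicate 1 of each group lay apart from the other libraries.

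The first question was how many loci changed and how much of the small RNA they carried. In edgeR's quasi-likelihood test on reads summed over 18 to 26 nt, 943 loci rose (14% of those tested) and 1164 fell (17.3%), at an adjusted p under 0.05. The median log2 change was 1.92 among the loci that rose and -2.00 among those that fell, against 0.10 over all loci tested. A change of at least 4-fold was fitted for 435 of the rises and 578 of the falls, and one of at least 16-fold for 81 and 100. In cotyledon, 33 of the rising loci had 0 reads in all 3 libraries, and in callus 9 of the falling loci had 0. These 2 counts cannot be set against each other. A locus without reads in a group entered the test through the other libraries, which were all callus for these rises. Callus libraries were also deeper, with a mean total of 4441851 reads against 3184742 in cotyledon. In RPM, the 2 groups lay wholly apart at 785 of the rises and 1160 of the falls, against 3034 of all loci tested (45.1%). RPM rests on library totals, and on that scale the median log2 change over all loci tested was -0.24. The calls were made on gene reads, with 0.10. This mismatch of scales favours separation of the falls, so the numbers for rises and falls cannot be set against each other.

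The split between rises and falls depended on the scale. The test scales libraries by their gene reads (TMM), which places the median locus near 0. Scaled by library totals instead, the median log2 change over all loci tested was -0.24, and 566 loci rose and 1598 fell, so that rises made up 26.2% of the calls in place of 44.8%. The 566 loci were all among the 943, and the 1164 falls were all called again. Without replicate 1 of both groups, a choice made after seeing the data, 603 loci rose and 853 fell.

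Rises and falls lay at different levels. Below a mean of 3 RPM over the 6 libraries, 419 loci rose and 111 fell of 2542 tested, and at 10 RPM or more, 200 rose and 516 fell. At 100 RPM or more, 24 rose and 65 fell of 137 tested, 65.0% of which passed the test. The low loci gave more rises than falls and added little to the totals. The filter on low counts used all 12 libraries, most of them callus, so a locus low in cotyledon could enter through callus alone. That choice favours rises among the low loci, and how far it did was not tested. Of the RPM gained by rising loci, 3 identifiers gave at least 50%, and 87 gave 90%. The 3 were Solyc11g008540.3 and the pair Solyc12g040470.2 and Solyc03g119020.2, whose counts were nearly identical and cannot be told apart. The pair gave 14411 of the 35395 RPM gained, and its calls were lost without cotyledon replicate 1 or callus replicate 2 (edgeR adjusted p up to 0.0692). Without the pair, the gain was 20984 RPM, of which 3 loci gave at least 50% and 226 gave 90%. For the falls the corresponding numbers were 22 and 418 loci, so the loss was shared by more loci than the gain with or without the pair.

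Relative to library totals, the net effect was fewer small RNA reads on genes. Gene reads per library were not fewer in callus, with a mean of 562920 against 523015 in cotyledon. Fewer reads on genes and more reads elsewhere cannot be told apart from such shares. Gene reads made up 147383, 184054 and 164948 RPM in the 3 cotyledon libraries and 112554, 145508 and 119798 RPM in callus. Callus libraries were thus all below the lowest cotyledon library, and the share of library reads on genes was 16.5% ± 1.83 in cotyledon and 12.6% ± 1.73 in callus (SD, n = 3; exact permutation p = 0.1, the smallest that 3 against 3 libraries can give, or 0.169 adjusted over 22 library measures). Group means of rising loci added up to 35395 RPM gained and those of falling loci to a change of -59414 RPM. The 4622 loci tested without a call added -13301 RPM, and those with too few reads for a test -2189 RPM.

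To find the length that carries each change, the day 14 minus day 0 difference of a locus was divided among the 9 lengths. A change was assigned to a length that made up at least 50% of it and was otherwise called spread over lengths. Of the rises, 123 were carried by 21-nt reads, 35 by 22-nt, 242 by 24-nt and 11 by another length, and 532 were spread. Of the falls, 85 were carried by 21-nt reads, 5 by 22-nt, 402 by 24-nt and 27 by another length, and 645 were spread. The boundary cuts through a continuum, since 122 called loci had a largest part of 50 to 55% and 148 one of 45 to 50%.

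**Figure D1:**
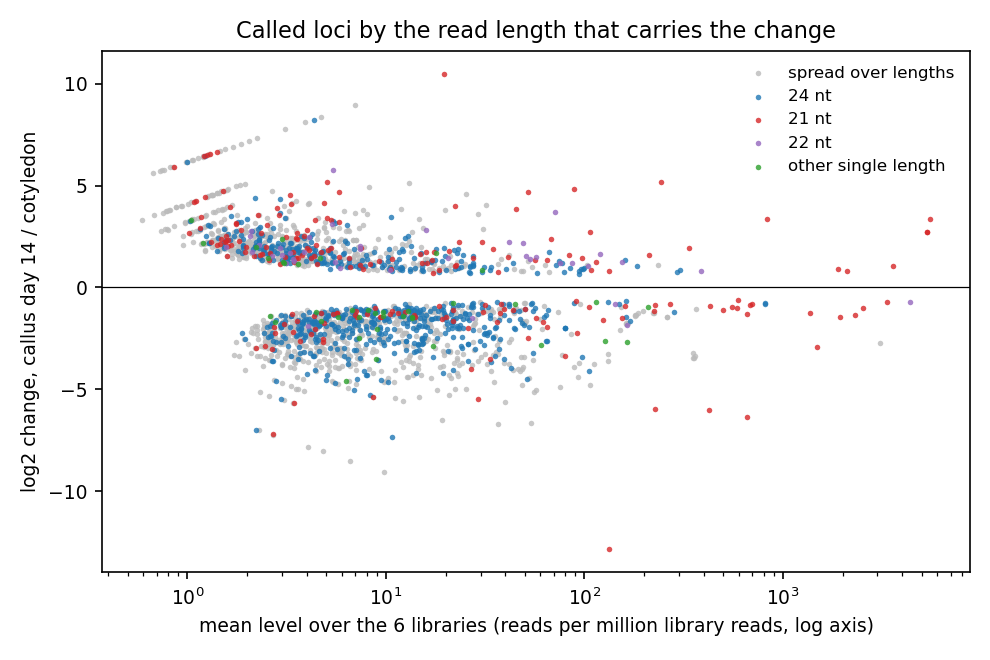
Each point is 1 of the 2107 called loci, with its mean level over the 6 libraries in RPM (log axis) against its fitted log2 change, coloured by the read length that carries the change. Rises and falls carried by 24-nt reads or spread over lengths lie mostly at low and middle levels, and of the 14 with at least 1000 RPM, 12 are carried by 21-nt reads. Fitted changes of loci without reads in a group, such as the streaks at the upper left, depend on the prior count of the fit.

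Counted by reads, the picture differed from that counted by loci. The 123 rises carried by 21-nt reads gave 29774 of the 35395 RPM gained, or 84.1%. Without the near-identical pair, whose calls rest on single libraries, they gave 15363 of 20984 RPM, or 73.2%. The 242 rises carried by 24-nt reads gave 2024 RPM (5.72%), and the 532 spread rises gave 2633 RPM (7.44%). Among the falls, the 85 loci carried by 21-nt reads and the 645 spread loci lost nearly equal amounts, -22460 RPM and -22434 RPM, each 37.8% of the loss. The 402 falls carried by 24-nt reads made up 16.8% of the loss, with -9991 RPM.

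**Figure D2:**
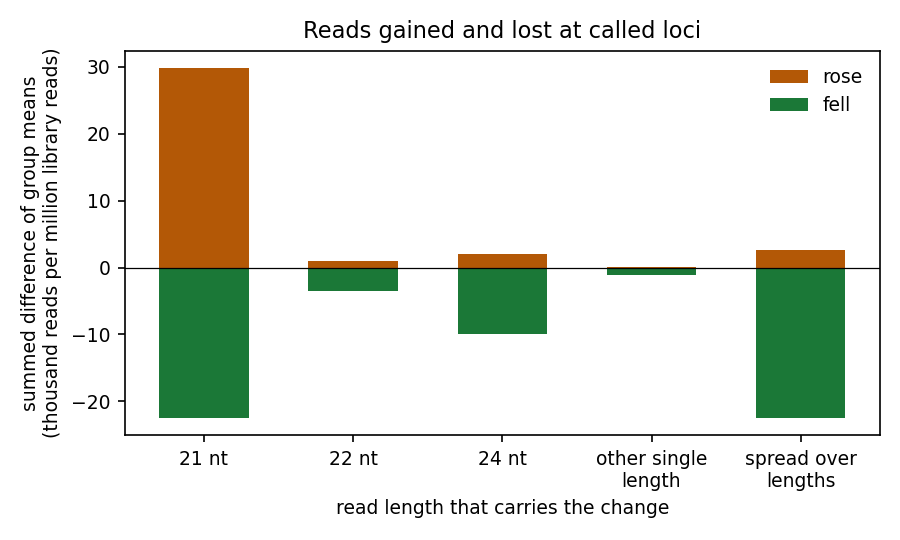
Bars give the summed difference of group means, callus day 14 minus cotyledon, in units of 1000 RPM for the loci that rose (above 0) and fell (below 0), by the read length that carries the change. Most of the gain stands in the 21-nt bar, with 84.1% of the total (73.2% without the near-identical pair Solyc12g040470.2 and Solyc03g119020.2, which gives 14411 RPM of it), and losses are divided mainly between 21 nt (37.8%), spread loci (37.8%) and 24 nt (16.8%).

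The spread falls summed to 23996, 29561 and 27417 RPM in the cotyledon libraries and to 3588, 5467 and 4616 RPM in callus. The 24-nt falls summed to 14550, 13226 and 13761 RPM in cotyledon and to 3855, 4061 and 3649 RPM in callus. Both sums were several times lower in every callus library, and the 24-nt sums were the closer among replicates. The 21-nt rises summed to 6831, 16504 and 13358 RPM in cotyledon and to 34623, 56221 and 35171 RPM in callus, with no overlap between the groups. Without the near-identical pair they summed to 5479, 11520 and 9457 RPM in cotyledon and to 18462, 25788 and 28295 RPM in callus. Since these loci were chosen by their change between the same libraries, the sums are a description and carry no test.

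The mixture of lengths within these classes is a description too, since the classes were set by the same differences and a change in the share of the carrying length is favoured by that choice. At the 24-nt falls, 24-nt reads made up 67.2% ± 5.0 of the reads in cotyledon and 52.4% ± 1.1 in callus, where 21-nt reads were at 11.7% ± 1.5 in place of 5.79% ± 2.0 and 22-nt reads at 11.04% ± 0.37 in place of 4.93% ± 1.2 (SD, n = 3). At the spread falls, no length held more than 16.8% of the reads in cotyledon on average, and 18-nt and 26-nt reads made up 7.23% ± 2.8 and 7.04% ± 2.4 (SD, n = 3). The reads left there in callus had more of 24 nt, 24.02% ± 1.4, and less of 18 nt, 2.63% ± 0.69 (SD, n = 3). In group means 24 nt was the most frequent length in both tissues, although in cotyledon it ranged from 13.1 to 20.6% among libraries. At the 21-nt rises, the share of 21-nt reads grew from 70.9% ± 0.99 to 86.8% ± 2.4 and that of 22-nt reads shrank from 22.7% ± 1.1 to 8.49% ± 1.0 (SD, n = 3). The near-identical pair and Solyc11g008540.3, with 14411 and 8584 of the 29774 RPM gained by this class, weigh heavily in these shares.

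Loci were named by a rule. For each direction and carrying class, these are the loci with the largest difference in RPM and the one in the middle of the ranking. They were taken from called loci with a mean of at least 10 RPM and no overlap between the groups in RPM. These conditions were met by 155 rises and 516 falls, numbers that share the mismatch of scales given above.

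Among the rises carried by 21-nt reads, Solyc11g008540.3 had the largest difference. It stood at 555, 1709 and 1474 RPM in the cotyledon libraries and at 7086, 10478 and 11926 RPM in callus (log2 change 3.35, SE 0.37; edgeR adjusted p = 3.16e-06). Its gain lay almost wholly at 21 nt, where the level went from 633 ± 335 to 8179 ± 2122 RPM (SD, n = 3), while 22-nt reads went from 508 ± 225 to 886 ± 223 RPM (SD, n = 3). Both lengths rose, with log2 changes of 4.07 at 21 nt and 1.18 at 22 nt (edgeR adjusted p = 9.65e-07 and 0.00568). In cotyledon the locus therefore gave nearly as many 22-nt as 21-nt reads, 38.7 to 45.1% against 46.0 to 52.5% of its reads, and in callus 8.20 to 9.57% against 81.9 to 84.4%. It was one of 3 neighbouring identifiers that all rose, Solyc11g008520.3 to Solyc11g008540.3, whose reads together were 1958, 5759 and 4764 RPM in cotyledon and 10377, 15351 and 17866 RPM in callus.

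Solyc12g040470.2 came next and varied far more. It had 677, 2494 and 1952 RPM in cotyledon and 8082, 15221 and 3438 RPM in callus, with 93.7 to 94.6% of its reads at 21 nt in every library. The groups did not overlap, but callus replicate 2 held more than 4 times the level of replicate 3. The log2 change was 2.74 (SE 0.82; edgeR adjusted p = 0.0169), and the call was lost without cotyledon replicate 1 or callus replicate 2 (adjusted p up to 0.0692). Its counts were nearly identical to those of Solyc03g119020.2, so the reads of the pair cannot be assigned to one of them. In the middle of the ranking stood Solyc02g069260.3, with 9.94, 7.19 and 11.9 RPM in cotyledon and 25.0, 27.7 and 23.1 RPM in callus (log2 change 1.73, SE 0.26; edgeR adjusted p = 7.54e-05). That is 2.61-fold in RPM, with the libraries of each group close together.

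Rises carried by 22-nt reads were few. Solyc01g014740.1 rose from 8.86, 17.6 and 12.3 RPM to 81.3, 121 and 185 RPM (log2 change 3.68, SE 0.34; edgeR adjusted p = 3.48e-07). Its 24-nt reads rose as well, from 0.556 ± 0.675 to 20.2 ± 7.69 RPM (SD, n = 3; log2 change 5.52, edgeR adjusted p = 1.4e-05), so that 24 nt went from at most 7.41% of its reads to at least 15.4%. Solyc07g160420.1, at 281, 343 and 348 RPM in cotyledon and 421, 467 and 464 RPM in callus, changed the same way on a smaller scale. Its log2 change was 0.83 (SE 0.21; edgeR adjusted p = 0.0051), or 0.48 and no longer past the threshold when scaled by library totals (adjusted p = 0.0899). At this locus 24-nt reads rose from 23.8 ± 2.88 to 80.5 ± 6.55 RPM (SD, n = 3; log2 change 2.10, edgeR adjusted p = 3.66e-05) and 21-nt reads, at 44.6 ± 5.14 and 38.5 ± 4.74 RPM (SD, n = 3), did not pass the test. The middle locus, Solyc07g161970.1, went from 13.1 ± 1.63 to 27.8 ± 4.74 RPM (SD, n = 3; log2 change 1.44, edgeR adjusted p = 0.000331).

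Rises carried by 24-nt reads were the most numerous of those with a single length, with a median log2 change of 1.68. Solyc12g013780.3 had 122, 86.6 and 110 RPM in cotyledon and 272, 175 and 192 RPM in callus (log2 change 1.36, SE 0.27; edgeR adjusted p = 0.000894). The 24-nt reads rose from 66.7 ± 16.8 to 176 ± 44.97 RPM while 23-nt reads were at 35.6 ± 4.78 and 28.3 ± 4.26 RPM (SD, n = 3), and the share of 24 nt went from 54.7 to 69.2% up to 80.9 to 83.6%. Solyc09g092270.3 had 86.9 to 91.5% of its reads at 24 nt in all 6 libraries, and went from 216, 269 and 274 RPM to 312, 363 and 385 RPM (log2 change 0.84, SE 0.22; edgeR adjusted p = 0.00857). Scaled by library totals, its log2 change was 0.48 and did not pass (edgeR adjusted p = 0.0870). Solyc10g050900.1, in the middle of the ranking, had 11.02 ± 0.705 RPM in cotyledon and 20.3 ± 5.65 RPM in callus (SD, n = 3; log2 change 1.22, edgeR adjusted p = 0.0098).

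One rise by the naming rule was carried by another length. Solyc03g083110.1 rose from 16.4, 5.88 and 7.22 RPM to 16.6, 23.8 and 37.2 RPM (log2 change 1.70, SE 0.39; edgeR adjusted p = 0.00325), and callus replicate 1 lay just above cotyledon replicate 1. The rise was one of 23-nt reads, from 1.62 ± 0.546 to 22.5 ± 10.02 RPM (SD, n = 3; log2 change 4.15, edgeR adjusted p = 2.39e-06). Reads of 24 nt went from 7.24 ± 6.97 to 1.86 ± 0.440 RPM (SD, n = 3) and did not pass the test (log2 change -1.66, edgeR adjusted p = 0.0864). In callus 80.3 to 89.2% of its reads were of 23 nt, against 6.56 to 30% in cotyledon.

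Rises without a main length were led by Solyc01g108950.3 and Solyc10g054440.3. The first had 61.5, 93.7 and 76.2 RPM in cotyledon and 117, 154 and 120 RPM in callus (log2 change 1.11, SE 0.22; edgeR adjusted p = 0.000907). Its reads of 21, 22, 23 and 24 nt all rose, with log2 changes of 1.42, 1.00, 0.99 and 1.45 (edgeR adjusted p from 0.000612 to 0.0178). Solyc10g054440.3 rose from 4.03, 6.21 and 6.14 RPM to 61.2, 64.0 and 32.5 RPM (log2 change 3.62, SE 0.34; edgeR adjusted p = 3.89e-07). At 48.8% of the difference, its 21-nt reads were just under the share needed to be called the carrying length. Solyc04g160290.1, in the middle, had 35.8 ± 3.99 and 68.0 ± 1.21 RPM (SD, n = 3; log2 change 1.28, edgeR adjusted p = 0.000266).

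**Figure D3:**
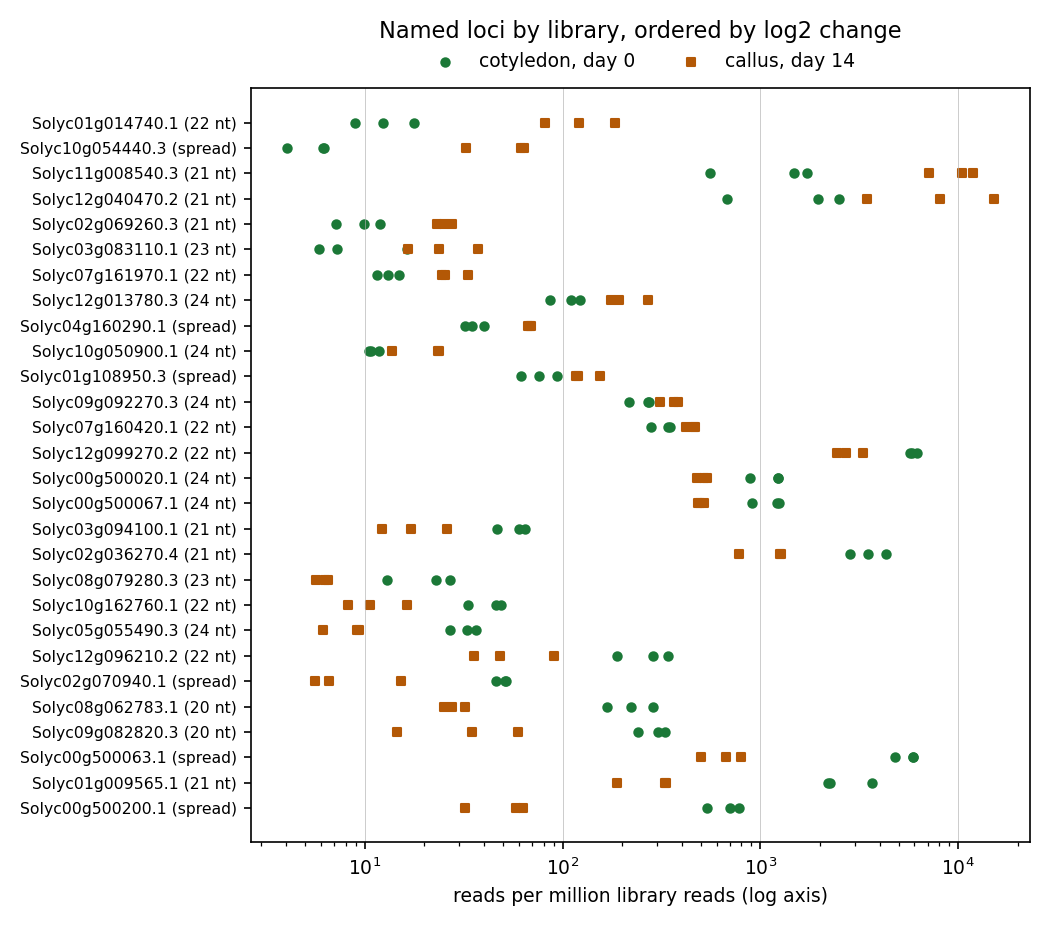
Levels in RPM (log axis) of the 28 loci named by class, in each of the 3 cotyledon libraries (circles) and 3 callus day 14 libraries (squares), ordered by log2 change with the carrying length in parentheses. Groups do not overlap at any of them, which the naming rule required. Replicates lie close together at most loci, and Solyc12g040470.2 is spread most widely, from 3438 to 15221 RPM in callus.

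Falls carried by 21-nt reads included loci that were abundant in the cotyledon. Solyc02g036270.4 had 2844, 4291 and 3490 RPM in cotyledon and 781, 1252 and 1274 RPM in callus (log2 change -1.33, SE 0.23; edgeR adjusted p = 0.000347). Solyc01g009565.1 fell more, from 2255, 3663 and 2202 RPM to 188, 329 and 334 RPM, or 9.54-fold in RPM (log2 change -2.90, SE 0.29; edgeR adjusted p = 7.94e-07). At both loci the 22-nt reads fell too, by 1.73 and 3.37 on the log2 scale against 1.22 and 2.70 at 21 nt (edgeR adjusted p from 7.11e-08 to 0.00234). Solyc03g094100.1, in the middle, fell from 46.5, 64.7 and 59.9 RPM to 12.2, 17.1 and 26.1 RPM (log2 change -1.27, SE 0.29; edgeR adjusted p = 0.0028). All 3 loci kept 21 nt as their most frequent length in callus, with 65.4 to 84.6% of their reads.

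Of the 5 falls carried by 22-nt reads, Solyc12g099270.2 held most of the reads. It had 5838, 5705 and 6196 RPM in cotyledon and 2430, 2711 and 3294 RPM in callus, 2.10-fold lower in RPM with narrow groups. The TMM-scaled log2 change of -0.72 passed by a small margin (SE 0.26; edgeR adjusted p = 0.0447). It was lost on leaving out any of the 6 libraries except callus replicate 3 (adjusted p up to 0.160), whereas scaling by library totals gave -1.07 (edgeR adjusted p = 0.00174). Solyc12g096210.2 fell from 187, 340 and 288 RPM to 35.5, 48.1 and 90.6 RPM (log2 change -1.86, SE 0.33; edgeR adjusted p = 0.000388). Reads of 22 nt were 76.2 to 85.5% of its reads in every library. The middle locus, Solyc10g162760.1, went from 42.6 ± 8.41 to 11.7 ± 4.14 RPM (SD, n = 3; log2 change -1.50, edgeR adjusted p = 0.00162).

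Falls carried by 24-nt reads were led by Solyc00g500067.1 and Solyc00g500020.1, whose counts were nearly identical and which therefore count as 1 observation. Solyc00g500020.1 had 887, 1224 and 1233 RPM in cotyledon and 475, 516 and 538 RPM in callus (log2 change -0.77, SE 0.23; edgeR adjusted p = 0.0152). The length made a large difference here. Reads of 24 nt fell from 541 ± 77.2 to 141 ± 15.1 RPM (SD, n = 3; log2 change -1.59, edgeR adjusted p = 0.000161) and 23-nt reads from 212 ± 49.4 to 87.6 ± 5.08 RPM (SD, n = 3; log2 change -0.92, edgeR adjusted p = 0.00336). Reads of 21 nt, at 176 ± 71.5 and 131 ± 12.0 RPM, and of 22 nt, at 134 ± 40.5 and 126 ± 1.90 RPM (SD, n = 3), did not pass the test. The difference between the 24-nt and the 21-nt change was itself called (-1.61 on the log2 scale, SE 0.32; edgeR adjusted p = 0.000654). The summed change was lost without 1 library in 4 of 6 cases, namely cotyledon replicate 2 or 3 and callus replicate 1 or 2 (adjusted p up to 0.0743), and that of its near-copy without cotyledon replicate 2 or callus replicate 2 (adjusted p up to 0.0662). In the middle of the ranking, Solyc05g055490.3 fell from 36.3, 33.0 and 27.1 RPM to 9.35, 9.17 and 6.12 RPM (log2 change -1.62, SE 0.38; edgeR adjusted p = 0.00353). Both its 23-nt and its 24-nt reads fell, with log2 changes of -2.07 and -1.50 (edgeR adjusted p = 0.00235 and 0.0282).

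A few falls were carried by lengths other than 21, 22 and 24 nt. Solyc09g082820.3 had 241, 329 and 303 RPM in cotyledon and 14.5, 59.2 and 34.6 RPM in callus (log2 change -2.68, SE 0.38; edgeR adjusted p = 4.73e-05). Its 20-nt reads fell from 155 ± 41.9 to 4.32 ± 2.54 RPM (SD, n = 3; log2 change -4.80, edgeR adjusted p = 3.05e-13), its 21-nt reads from 82.1 ± 5.20 to 17.5 ± 12.0 RPM (SD, n = 3; log2 change -1.90, edgeR adjusted p = 0.00118), and its 24-nt reads, at 22.1 ± 1.94 and 8.95 ± 5.46 RPM (SD, n = 3), did not pass. Its most frequent length was thus 20 nt in all cotyledon libraries and 21 nt in all callus libraries. Solyc08g062783.1 fell from 168, 287 and 222 RPM to 27.6, 25.0 and 32.0 RPM (log2 change -2.63, SE 0.29; edgeR adjusted p = 3.18e-06) with 20 nt at 66.9 to 76.5% of its reads in all 6 libraries, so that here the length did not shift with the level. The middle locus, Solyc08g079280.3, carried by 23-nt reads, went from 20.9 ± 7.13 to 6.15 ± 0.455 RPM (SD, n = 3; log2 change -1.43, edgeR adjusted p = 0.0164). That call was lost without cotyledon replicate 1 or callus replicate 2 or 3.

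Falls spread over lengths were led by Solyc00g500063.1. It fell from 4775, 5904 and 5878 RPM to 502, 800 and 670 RPM, 8.39-fold in RPM (log2 change -2.72, SE 0.25; edgeR adjusted p = 3.46e-07). In mean levels no length held more than 15.03% of its reads in cotyledon. Each of the 9 lengths fell, with log2 changes from -2.13 at 21 nt to -4.32 at 18 nt (edgeR adjusted p from 3.25e-15 to 2.84e-05). Solyc00g500200.1 fell from 539, 702 and 780 RPM to 32.0, 63.1 and 57.9 RPM (log2 change -3.37, SE 0.27; edgeR adjusted p = 1.25e-07). The middle locus, Solyc02g070940.1, fell from 51.6, 51.0 and 45.9 RPM to 5.61, 15.2 and 6.59 RPM (log2 change -2.10, SE 0.35; edgeR adjusted p = 0.000221).

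Some called loci had neighbouring identifiers. With all identifiers of the table in numbered order, 25 runs of at least 3 consecutive falling loci held 99 of the 1164 falls. For the rises, 9 runs held 28 of the 943. The longest went from Solyc02g070940.1 to Solyc02g071030.2, 9 loci without a main length that together had 485, 483 and 393 RPM in cotyledon and 26.4, 93.1 and 41.7 RPM in callus. Their log2 changes lay between -3.47 and -2.10. A run of 8, Solyc08g079840.3 to Solyc08g079910.2, fell from 220, 161 and 172 RPM to 44.9, 43.3 and 31.3 RPM. The longest rising run, of 4 loci from Solyc07g056701.1 to Solyc07g056706.1, went from 22.6, 14.4 and 19.9 RPM to 61.2, 60.4 and 56.7 RPM. Neighbouring loci can share reads where they are similar, and the runs were picked for their change and carry no test. How many runs these shares of called loci would give in any order was not computed, so falls and rises cannot be compared in this. Several falling runs lay on identifiers of chromosome 0, where 333 of 578 loci were tested and 82 fell. Some falling runs were also not separate from each other. Those that start at Solyc00g500054.1, Solyc00g500136.1 and Solyc00g500206.1 held loci with near-identical counts.

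Loci whose identifiers carry the chromosome number 0, used for sequence not placed on a chromosome, are given apart. Of 333 tested, 18 rose (5.41%) and 82 fell (24.6%), while identifiers of chromosomes 1 to 12 gave 12.8 to 16.5% rises and 13.9 to 20.6% falls. Their summed level was 21213, 24875 and 24218 RPM in cotyledon and 6905, 9178 and 8630 RPM in callus. Callus levels were below all cotyledon levels by a wide margin, and the difference of -15197 RPM was the largest loss of any identifier chromosome. Of this difference, Solyc00g500063.1 alone gave -4861 RPM. Several loci of chromosome 0 had near-identical counts, so they are fewer independent loci than their number.

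When each length was tested by itself, falls were in the majority at every length under both scalings. At 18 nt, 12 loci rose (7.36%) and 87 fell (53.4% of 163 tested; 60.7% called). At 20 nt, 34 rose (9.74%) and 155 fell (44.4% of 349; 54.2% called). At 21 nt, 183 rose (18.9%) and 223 fell (23.1% of 966; 42% called), and scaling by library totals gave 141 and 298. At 22 nt, 138 rose (18.5%) and 182 fell (24.4% of 746; 42.9% called), or 99 and 222 by library totals. At 23 nt, 92 rose (8.26%) and 221 fell (19.8% of 1114; 28.1% called), or 50 and 321. At 24 nt, 235 rose (9.89%) and 423 fell (17.8% of 2375; 27.7% called), or 167 and 656. At 25 nt, 46 rose (19.2%) and 84 fell (35% of 240; 54.2% called), or 31 and 94. At 19 nt, 20 rose (9.66%) and 96 fell (46.4% of 207; 56% called), and at 26 nt, 11 rose (11%) and 54 fell (54% of 100; 65% called). The lengths at both ends thus had the highest shares of called loci, and the number of loci tested there was small.

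Some changes appeared at 1 length and not in the sum. At 21 nt, 38 rises and 19 falls, and at 24 nt, 27 rises and 30 falls, were not called on the summed reads. Solyc01g006200.3 is an example at 21 nt, with 32.3 ± 10.5 and 55.6 ± 15.8 RPM at that length (SD, n = 3; log2 change 1.14, edgeR adjusted p = 0.00348) beside 75.8 ± 20.3 and 61.3 ± 23.6 RPM at 22 nt. Another, Solyc09g091000.5, had 52.0 ± 20.8 and 74.4 ± 24.3 RPM at 21 nt (SD, n = 3; log2 change 0.87, edgeR adjusted p = 0.0294). At 24 nt, Solyc04g014617.1 rose from 26.8 ± 3.51 to 61.2 ± 14.998 RPM (SD, n = 3; log2 change 1.53, edgeR adjusted p = 0.00187), while its main 22-nt reads were at 690 ± 125 and 361 ± 79.5 RPM (SD, n = 3) and did not pass. Solyc04g014613.1 likewise rose at 24 nt from 37.4 ± 5.89 to 82.1 ± 17.3 RPM (SD, n = 3; log2 change 1.48, edgeR adjusted p = 0.00403). Solyc11g008245.1 fell at 24 nt from 182 ± 47.6 to 73.9 ± 11.9 RPM (SD, n = 3; log2 change -0.96, edgeR adjusted p = 0.0195) and Solyc00g500062.1 from 108 ± 13.6 to 43.2 ± 9.17 RPM (SD, n = 3; log2 change -0.99, edgeR adjusted p = 0.0307). At 21 nt, Solyc00g500302.1, near-identical to Solyc11g063573.1, fell from 16.7 ± 6.13 to 6.25 ± 1.28 RPM and Solyc00g500314.1 from 15.3 ± 6.55 to 4.45 ± 1.40 RPM (SD, n = 3; edgeR adjusted p = 0.0136 and 0.00775). Several of these calls were weak. That of Solyc09g091000.5 was lost by library totals and without cotyledon replicate 1 or 3 or callus replicate 2 or 3, with an edgeR adjusted p up to 0.251 over its alternatives. At 24 nt, Solyc00g500062.1 lost its call without 1 library in 4 of 6 cases (all but cotyledon replicate 2 and callus replicate 3) and Solyc11g008245.1 in 3 (cotyledon replicate 1, callus replicates 1 and 2). At 21 nt, Solyc00g500302.1 lost it without cotyledon replicate 2 or callus replicate 3, and Solyc00g500314.1 without cotyledon replicate 2. Without the filter on low counts, the 21-nt calls of Solyc01g006200.3, Solyc00g500302.1 and Solyc00g500314.1 were lost too. The 24-nt rises of Solyc04g014613.1 and Solyc04g014617.1 held in all alternatives run.

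Reads of 21 and 24 nt from the same locus were then compared. Of 539 loci tested at both lengths, 131 were called at both, of which 43 rose at both, 84 fell at both and 4 went in opposite directions. Another 91 were called at 21 nt and 83 at 24 nt alone, which does not show that the lengths differed. The difference itself was tested within each locus, where library scaling cancels but a difference between libraries in their mixture of lengths does not. The ratio of 24-nt to 21-nt gene reads ranged from 0.503 to 1.12 among cotyledon libraries and from 0.364 to 0.592 in callus. The test passed at 62 of 539 loci (11.5%). Towards 24 nt moved 32 loci (5.94%) and towards 21 nt 30 (5.57%), numbers that depended on single libraries. They were 18 and 29 without callus replicate 1, 25 and 42 without cotyledon replicate 2, and 34 and 23 without cotyledon replicate 1. Of the 62, 22 were not called on summed reads.

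Among the 4 loci called in opposite directions, Solyc05g053970.3 rose at 21 nt from 19.7 ± 5.95 to 31.9 ± 7.08 RPM (SD, n = 3; log2 change 1.07, edgeR adjusted p = 0.00775) and fell at 24 nt from 17.5 ± 2.27 to 3.75 ± 1.32 RPM (SD, n = 3; log2 change -1.88, edgeR adjusted p = 0.00245). Its sum hardly moved, with 52.4, 50.0 and 58.5 RPM against 42.5, 46.7 and 55.6 RPM. Solyc07g042550.3 had 68.3 to 78.8% of its reads at 24 nt in cotyledon and 15.7 to 25.7% in callus, where 21- and 22-nt reads, at most 5% before, made up 14.3 to 22.9% each. The 2 others rose at 24 nt and fell at 21 nt. At Solyc12g036595.2, 21-nt reads fell from 4.55 ± 1.18 to 1.13 ± 0.242 RPM and 24-nt reads rose from 4.33 ± 2.76 to 12.1 ± 4.45 RPM (SD, n = 3). At Solyc01g080770.3 they went from 6.39 ± 3.11 to 1.31 ± 1.51 RPM and from 1.70 ± 0.321 to 3.36 ± 0.667 RPM (SD, n = 3). In the test of the difference within the locus all 4 were called (edgeR adjusted p from 2.34e-05 to 0.00338). The single-length calls were weaker: without 1 library, the 21-nt fall was lost in 4 of 6 cases at Solyc12g036595.2 (all but cotyledon replicate 3 and callus replicate 1) and in 3 at Solyc01g080770.3 (cotyledon replicate 2, callus replicates 1 and 2), whose 24-nt rise was lost in all 6, and the 24-nt fall of Solyc07g042550.3 in 2 (cotyledon replicate 3, callus replicate 2). The 21-nt rise of Solyc05g053970.3 was not past the test by library totals or without the filter on low counts (edgeR adjusted p up to 0.142).

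**Figure D4:**
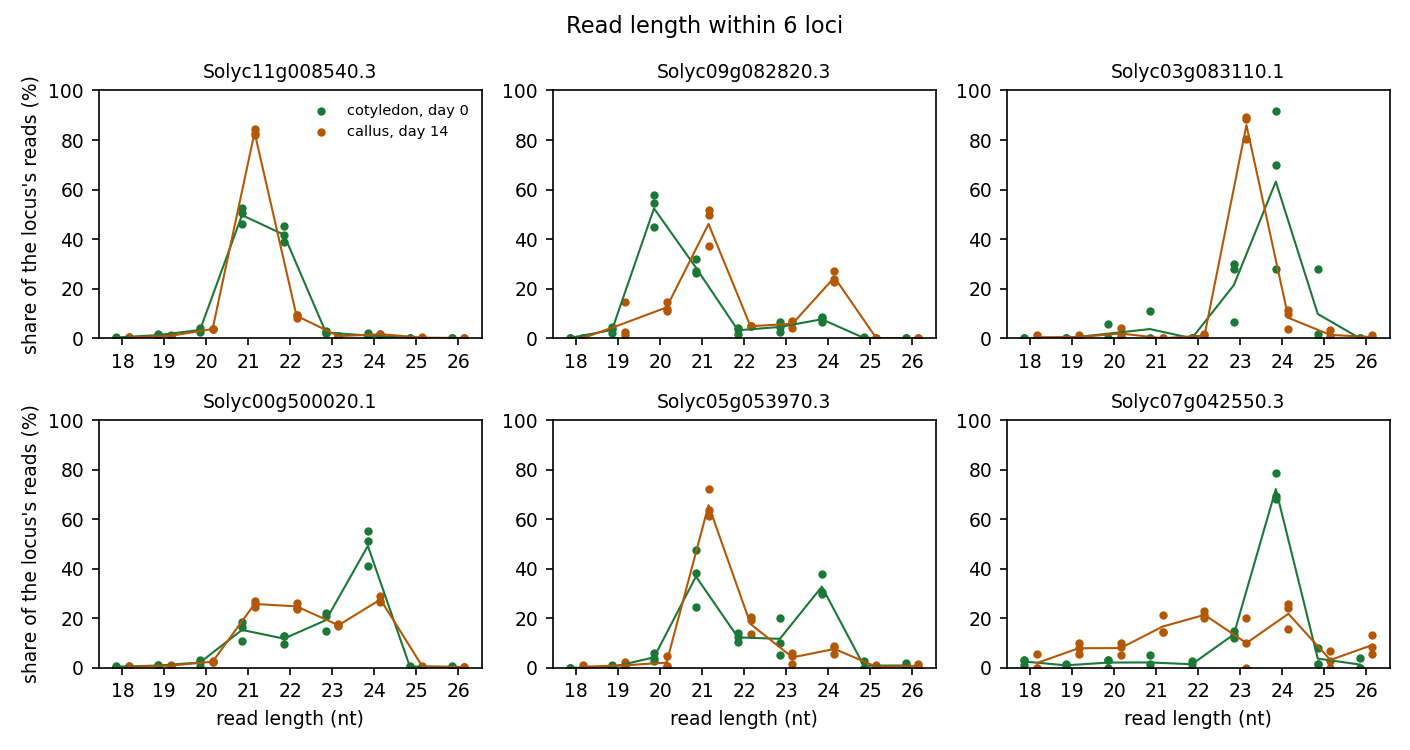
Share of a locus's reads at each length from 18 to 26 nt, in percent, for 6 of the named loci; points are the 3 libraries of each group and lines join their means. In callus the 22-nt share of Solyc11g008540.3 shrinks, although its 22-nt reads rose in RPM. Solyc09g082820.3 loses its 20-nt part. At Solyc03g083110.1 the 23-nt share grows, while the change of its 24-nt reads did not pass the test. At Solyc00g500020.1, Solyc05g053970.3 and Solyc07g042550.3 the 24-nt part shrinks in callus. These 6 loci were picked from the named loci after their values were seen.

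Summed over loci and relative to library totals, small RNA reads on genes fell at most lengths on the sense strand and at fewer on the antisense strand. In limma on log2(TPM + 1), 12 of the 18 classes of length and strand fell and 0 rose (66.7% called), 8 of them sense and 4 antisense. Sense reads of 18 nt fell from 3918 ± 1967 to 1250 ± 283 TPM (SD, n = 3; log2 change -1.53, SE 0.37, limma adjusted p = 0.00342), and those of 19 and 20 nt fell by 1.28 and 1.18 on the log2 scale. Antisense reads of these lengths did not pass, with log2 changes of -0.21, -0.18 and -0.36. That depended on the cotyledon libraries: without replicate 1 they passed at -0.63, -0.56 and -0.64 (limma adjusted p = 0.0135, 0.0197 and 0.00277), and without replicate 2 the values at 18 and 19 nt were 0.14 and 0.19. Sense 23-nt reads were at 9926 ± 50.9 TPM in cotyledon and 5822 ± 248 in callus (SD, n = 3; log2 change -0.77, limma adjusted p = 0.000203). The antisense calls at 22 and 26 nt were lost in some alternatives (limma adjusted p 0.0453 and 0.0407, up to 0.167 and 0.129), and reads of 21 nt passed on neither strand.

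The strands were compared within each library as the antisense share of the gene reads of a length. At 18 nt it was 12.3% ± 0.136 in cotyledon and 25.9% ± 2.36 in callus, at 20 nt 21.05% ± 0.296 and 31.9% ± 2.32, and at 25 nt 15.9% ± 0.882 and 24.8% ± 1.25 (SD, n = 3). The groups did not overlap at these lengths or at 19, 22 and 23 nt, and at each the exact permutation p was 0.1 (0.169 adjusted over 22 measures), the smallest this design allows. At 24 nt, the share was 44.9% ± 0.886 and 46.2% ± 0.618 (SD, n = 3), and at 21 and 26 nt the groups overlapped. The antisense share of callus was the higher one at all 6 lengths without overlap.

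**Figure D5:**
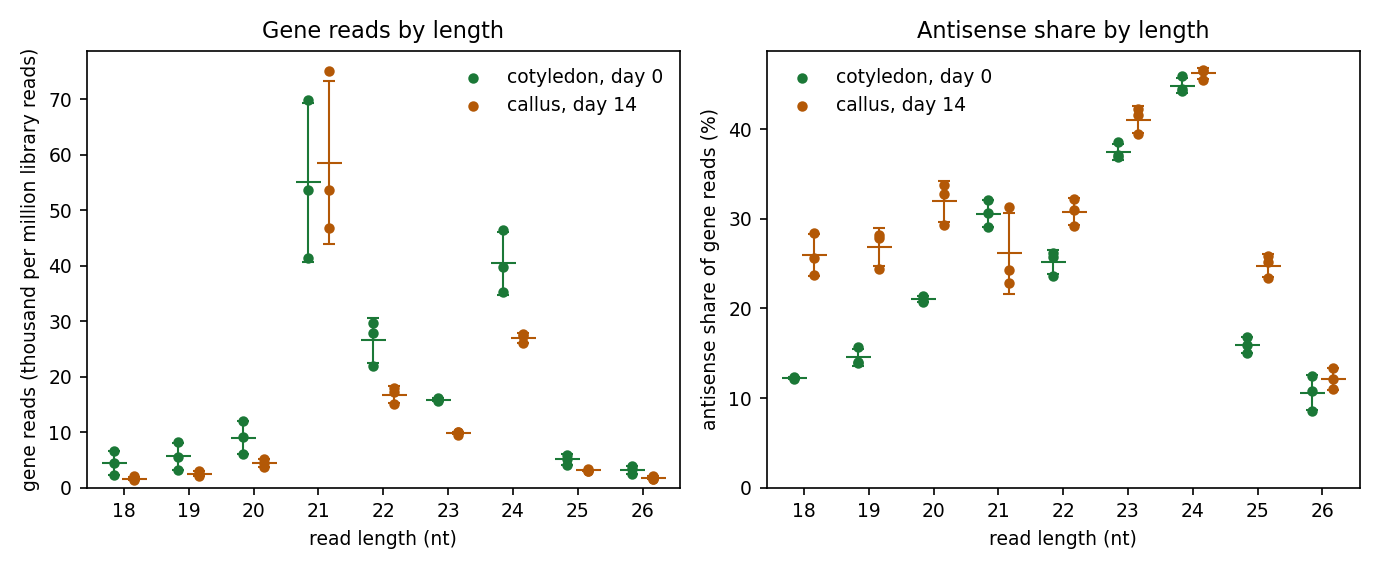
Left, gene reads of each length in units of 1000 RPM; right, the antisense share of those reads in percent; points are the 3 libraries of each group, with mean and SD. At 18 to 20 nt and at 22, 23 and 25 nt the callus libraries lie below the cotyledon libraries in level and above them in antisense share. The means of that share go from 12.3% to 25.9% at 18 nt.

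The share of 21-nt reads among gene reads was 32.9% ± 4.96 in cotyledon and 46.0% ± 5.07 in callus (SD, n = 3), without overlap (exact permutation p = 0.1, 0.169 adjusted over 22 measures). This rise of 13.1 percentage points rested on a few loci. Without the 10 most abundant loci of each group, 16 in all, the difference was 0.0074 percentage points, and the callus minus cotyledon difference in the 24-nt share, -3.18 points with all loci, was 1.95 points. The 10 most abundant loci of each library held 21.9% ± 1.39 of the gene reads in cotyledon and 35.1% ± 5.16 in callus (SD, n = 3).

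Levels at the neighbouring callus times are given for the loci with the most reads, without a comparison, since all times share the cotyledon libraries. Solyc11g008540.3 was at 12759 ± 1061 RPM at day 12 and 11178 ± 3127 at day 16, beside 9830 ± 2484 at day 14 (SD, n = 3). Solyc12g040470.2 ranged from 573 to 12092 RPM among the day 12 libraries and from 1136 to 4450 RPM at day 16. Solyc00g500063.1 was at 967 ± 198 RPM at day 12 and 787 ± 95.9 at day 16, beside 658 ± 149 at day 14 (SD, n = 3). For the first and the last of these, every callus library of the 3 times lay on the same side of the cotyledon libraries.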

How the data were processed

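Small RNA libraries of cotyledon (day 0) and callus (days 12, 14 and 16) were processed by the authors with fastp, Bowtie and DESeq2, per the submitters' processing notes; versions, settings, the treatment of reads with several matches and the genome build are not given in the sources used here. The authors deposited raw counts per locus in 108 columns (9 lengths in 12 libraries), TPM of sense and antisense gene reads, and their own log2 fold changes and p-values per length, per the file headers. Library totals were recovered by dividing counts by TPM: 216 of 216 TPM values came out whole within 0.05 reads. Unused columns numbered 0.

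Groups came from the sample titles. Counts were tested with edgeR 4.0.16 (R 4.3.3; quasi-likelihood, TMM, filterByExpr, Benjamini-Hochberg at 0.05) in 1 fit of all 12 libraries, summed and per length, with limma 3.58.1 for TPM classes (pseudocount 1) and exact two-sided permutation tests for shares; DESeq2 1.42.0 was an alternative. SE is the log2 change over the square root of F. The common biological coefficient of variation was 0.333. Replicates differed beyond counting noise. Named loci, with 2 of largest RPM difference and 1 of middle rank per class, also include 2 per direction called only at 21 or 24 nt and those called in opposite directions, 40 in all. Near-identical loci differ by under 5% in counts (at least 50 reads; 45 sets of 93 loci). The comparison, rules and lists were chosen with earlier results of these data known. Gene lists could not be applied to loci without names. Scripts were tested on simulated data.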

Additional observations from a re-analysis of the deposited data

How the results depend on the processing

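The number of called loci, 2107, was 1735 to 1845 on leaving out 1 library and 1456 without replicate 1 of both groups. Such totals include newly called loci. Without 1 library, 651 to 730 of the 943 rises and 902 to 946 of the 1164 falls kept their call and direction. With the replicate number as a block, the number of called loci was 1956. Same-numbered libraries correlated by only 0.0433 to 0.180 after group means were removed, so the numbers were not taken to pair samples. The block moved no count by over 1.5 times. It ended the call of Solyc12g099270.2 (edgeR adjusted p = 0.0628) and the 24-nt call of Solyc01g080770.3. DESeq2 gave 771 rises and 1144 falls, and 1 locus per near-identical set, also tried after seeing the data, 911 and 1176. Rises were most dependent on the setting, with 566 by library totals and 603 without both replicates 1. The cause was not tested.

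Per length, the authors' deposited table held 152 calls at 18 nt, 203 at 19 nt and 205 at 25 nt, against 99, 116 and 130 by edgeR. At 21, 22, 23 and 24 nt it held fewer, 344, 222, 221 and 575 against 406, 320, 313 and 658. Calls shared in the same direction were 81 at 18 nt, 102 at 19 nt and 117 at 25 nt. At 21, 22, 23 and 24 nt they were 274, 185, 175 and 481, so the 2 sets of loci overlapped only in part. Without 1 library, the calls were 95 to 149 at 18 nt and 69 to 100 at 26 nt, and shifts towards 24 nt 18 to 34. The 24-nt share difference ranged from -6.07 to 0.112 percentage points. Without the 16 most abundant loci the differences in share turned to 1.20 points at 22 nt, 0.264 at 23 nt, 1.95 at 24 nt, 0.237 at 25 nt and 0.0354 at 26 nt, and that of the 24-to-21-nt ratio to 0.0651. Without the near-identical pair, a choice made after seeing the data, 21-nt rises carried 73.2% of the gain in place of 84.1%. Requiring 75% of the difference in place of 50% left 54 rises carried by 21 nt, 4 by 22 nt, 87 by 24 nt and 1 by another length, and 26, 2, 149 and 7 falls, with 980 falls spread; on the gene-read scale 4 rises were carried by another length. Of 418 alternatives for the 28 loci named from the summed test, 393 kept direction and call, 25 lost the call, at 7 loci, and 0 reversed. These loci were chosen by their call, level and lack of overlap in the same libraries. The alternatives reuse most of those data, so keeping the call was favoured by that choice. Intervals per locus were not computed; loci with few reads are limited by depth, since below 3 RPM a library holds only a few reads.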
